A study of Arabidopsis thaliana with 64 samples.

Results

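Roots of Arabidopsis thaliana that received the auxin indole-3-acetic acid (IAA), the cytokinin kinetin and abscisic acid (ABA) together were set against roots that received no hormone. The arrays were chosen by their labels alone. They comprised 8 arrays with all 3 hormones (the combined arrays) and 8 arrays with none, or 16 of the 64 arrays of the series. In both arms 2 arrays came from each of 4 nitrogen regimes, namely no nitrogen, ammonium at 1 mM, nitrate at 1 mM, and mixed nitrogen with 0.5 mM of each ion. The doses were 500 nM for both IAA and kinetin and 1 µM for ABA, with harvest of the roots after 4 h. The no-hormone arm had only the mock additions (DMSO and KCl are named). All plants of both arms had first grown hydroponically on ammonium succinate and had then spent a day on medium without nitrogen, and the labels name no ecotype, mutation or transgene. Each group has arrays numbered 1 and 2, with no statement that these were separate cultures, so the p-values reflect a spread between arrays that could be technical.

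Auxin acts by removing Aux/IAA repressors, which lets auxin response factors switch on early genes such as the GH3 enzymes that conjugate auxin to amino acids and the LBD regulators of lateral root initiation. Cytokinin acts through a phosphorelay whose type-A response regulators are both early targets and brakes of the response. ABA is the hormone of water deficit, and its best known outputs are late embryogenesis abundant (LEA) proteins and dehydrins, which protect cells as they dry. In roots, cytokinin is known for opposing auxin in lateral root formation. The combined treatment was compared with no hormone, and with each pair of hormones.

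Each array was scaled to the same trimmed mean of 500, and array medians over these 16 arrays ran from an intensity of 103 to 254. The combined array of replicate 1 without nitrogen had the lowest median of all 64 arrays. It also had the lowest ratio of the 3' to the 5' actin probe sets of the 16 (3.64 on the log2 scale, the others lying between 5.25 and 8.47), a sign of RNA length. The 3' probe set was much the brighter on all 16 arrays, and least so on this one. Median log2 intensity averaged 7.31 ± 0.30 on combined arrays and 7.54 ± 0.25 on no-hormone arrays (SD, n = 8 each; exact two-sided permutation p = 0.114, adjusted p = 0.114). The actin ratio averaged 5.84 ± 1.08 on combined arrays and 6.82 ± 1.05 on no-hormone arrays (SD, n = 8 each; exact two-sided permutation p = 0.0833, adjusted p = 0.114). The part of these 2 measures in the results was not tested beyond the fits that hold them as covariates, named below where they ended the call of a named gene. Both root hair expansins on the array, EXPA7 and EXPA18, lay above the array median on all 16 arrays (the labelled tissue is root).

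In the limma fit 2272 of 22746 probe sets differed between the arms at a Benjamini-Hochberg adjusted p under 0.05, or 9.99% of those tested. Of these 1048 were higher on combined arrays (4.61%) and 1224 lower (5.38%). The change was at least 4-fold for 354 of the higher and 297 of the lower probe sets. The median difference over all probe sets was -0.22 on the log2 scale, and -0.06 after quantile normalization. Differences below are combined minus no hormone on the log2(intensity + 1) scale, and no probe set's level is set against another's. The size of a change to or from a low intensity depends on the added 1, the pseudocount. Each is given with its standard error and the adjusted p from limma.

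Arms did not overlap, with every combined array above or below every no-hormone array, for 444 of the 1048 higher probe sets and 326 of the 1224 lower ones, against 793 of all 22746 probe sets (3.49%, with 1.97% higher and 1.51% lower). The sign was the same in all 4 nitrogen regimes for 977 of the higher and 1111 of the lower, against 6047 of all 22746 probe sets. The calls rest on the mean of the same 4 regimes, which largely fixes both counts.

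**Figure D1:**
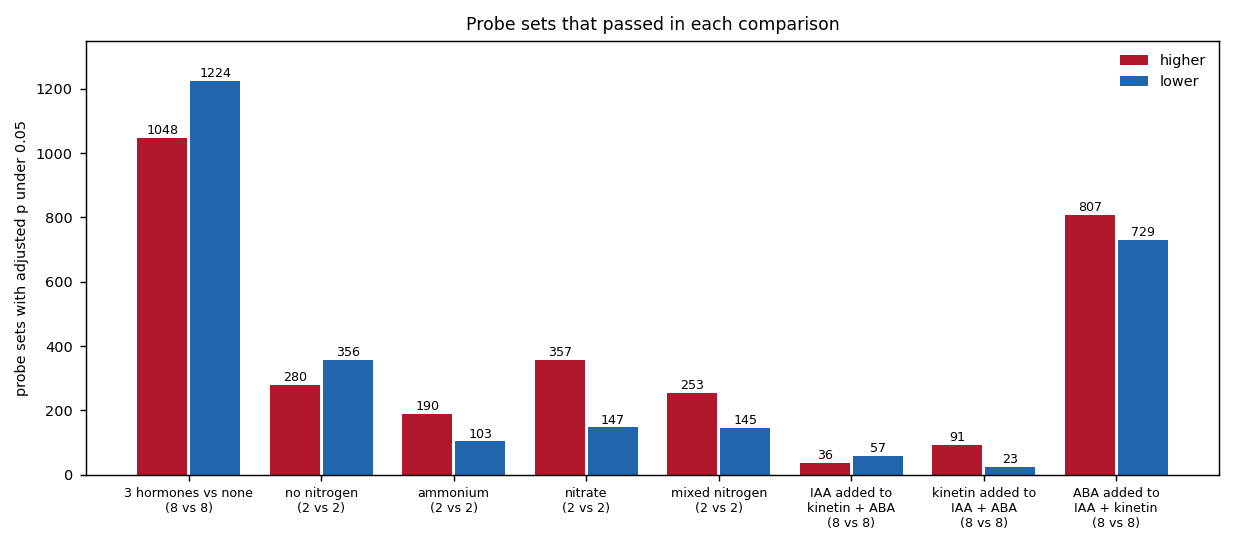
Number of probe sets with an adjusted p under 0.05 that were higher (red) or lower (blue), for the combined treatment against no hormone over all regimes and within each regime, and for each hormone added to the other 2. The combined treatment gave 1048 higher and 1224 lower probe sets, and ABA added to IAA and kinetin gave the tallest bars of the 3 additions (807 and 729).

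Of the ABA and dehydration list's 11 named members 6 rose and the other 5 did not pass, with a median difference of 2.37 beside -0.22 over all probe sets (4.61% of which rose). This list and those below were chosen with earlier results of these data known, so their counts and medians only describe the members. LEA4-5 (AT5G06760), a group 4 LEA protein, had intensities of 12876 to 39384 with a median of 30426 on combined arrays, against 21.8 to 192 with a median of 79.4 on no-hormone arrays. It rose by 8.71 ± 0.46 (adjusted p = 5.15e-17), and the arms were far apart in every regime. The cold-regulated chloroplast protein gene COR15A (AT2G42540) had 3631 to 18443 (median 6665) on combined arrays, against 63.9 to 242 (median 110) on no-hormone arrays. It rose by 6.15 ± 0.49 (adjusted p = 5.88e-12) without overlap.

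LEA18 (AT2G35300) had 471 to 1261 (median 621) on combined arrays, against 5.36 to 56.3 (median 17.7) on no-hormone arrays, a rise of 5.18 ± 0.56 (adjusted p = 7.75e-09). The dehydrin LTI30 (AT3G50970) was already well measured without hormone. It stood at 17438 to 30817 (median 23203) on combined arrays, against 651 to 1646 (median 1209) on no-hormone arrays, and rose by 4.31 ± 0.27 (adjusted p = 6.84e-15). The dehydrin COR47 (AT1G20440) rose by 3.61 ± 0.24 (adjusted p = 3.63e-14) and COR15B, the paralogue of COR15A, by 2.37 ± 0.40 (adjusted p = 3.63e-05). None of these 4 genes overlapped between the arms (1.97% of all probe sets were higher without overlap). With a pseudocount of 64 the rise of LEA18 was 3.14 and still passed.

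The members that did not pass were HIS1-3, a drought-inducible linker histone (1.03 ± 0.47, adjusted p = 0.19), AtLEA4-1 (0.97, interval -0.11 to 2.05), M17 (1.36, -0.36 to 3.08), AT2G44060 (0.55, -0.49 to 1.58) and M10 (-0.68, -1.68 to 0.31). The LEA family taken by name had 7 named members, of which LEA4-5 and LEA18 again rose and the other 5 did not pass (4.61% of all probe sets rose). Among these 7 the difference ran from 8.71 for LEA4-5 to -0.57 for the gene whose symbol is LEA, so they did not move as a block. Matching by name found 14 genes of this family and can miss members, so these values do not describe the whole family.

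Of the 12 named probe sets that rose furthest, 8 are genes known here by locus only. AT3G02480 rose furthest of all named genes. Its intensity was 28297 to 157678 (median 83066) on combined arrays, against 8.94 to 349 (median 110) on no-hormone arrays, a difference of 9.99 ± 0.59 (adjusted p = 1.41e-15). AT4G31830 had 1143 to 5205 (median 2844) on combined arrays, against 4.74 to 28.4 (median 10.8) on no-hormone arrays, and rose by 7.85 ± 0.35 (adjusted p = 7.2e-19). AT3G57010, AT1G16850 and AT2G38905 rose by 7.39 ± 0.63, 7.34 ± 0.48 and 6.52 ± 0.47, and AT5G66780, AT3G51750 and AT2G21820 by 6.03 ± 0.66, 6.01 ± 0.34 and 5.97 ± 0.46 (all adjusted p at or under 1.18e-08). None of these 8 had overlapping arms, which their choice as the largest rises largely fixes. Over all probe sets 1.97% were higher without overlap.

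**Figure D2:**
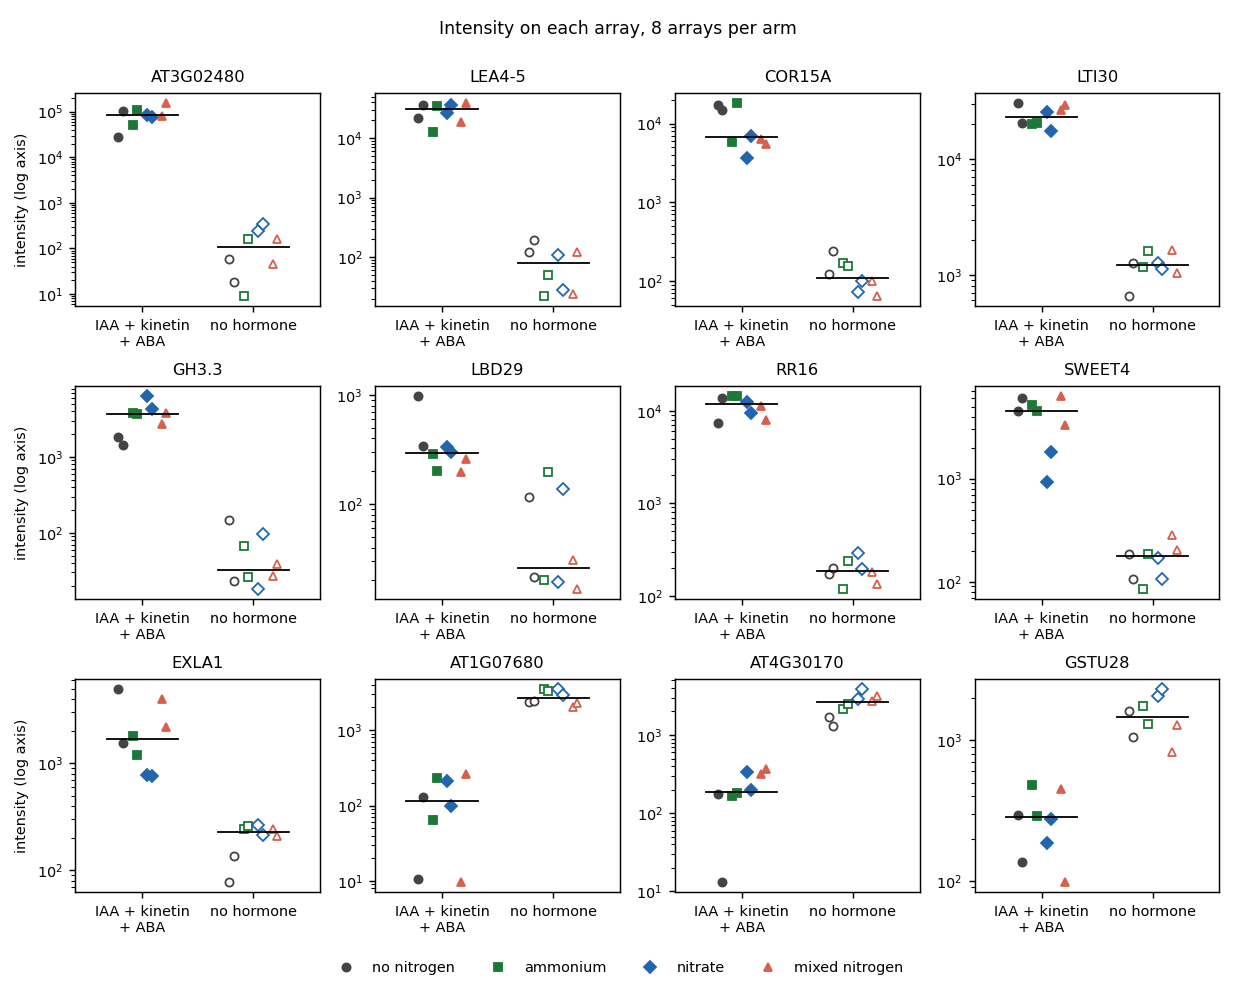
Intensity on each of the 16 arrays (log axis) for 12 genes, with the 8 combined arrays left and filled, the 8 no-hormone arrays right and open, symbols for the nitrogen regime and a line at each arm's median. Only LBD29 overlaps between the arms. For AT4G30170 the combined replicate 2 without nitrogen lies far below the others.

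In the auxin response list, of 15 named members 6 rose and the other 9 did not pass, with a median difference of 0.57 beside -0.22 over all probe sets (4.61% of which rose). GH3.3 (AT2G23170), which conjugates IAA to amino acids, had 1450 to 6414 (median 3738) on combined arrays, against 17.9 to 146 (median 32.8) on no-hormone arrays. It rose by 6.18 ± 0.48 (adjusted p = 3.04e-12), and the arms did not overlap. IAA30 (AT3G62100), a member of the Aux/IAA family that lacks the degradation motif of its relatives, had 578 to 4499 (median 1055) on combined arrays, against 27.8 to 259 (median 105) on no-hormone arrays, and rose by 3.97 ± 0.36 (adjusted p = 1.05e-10).

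CLE44 (AT4G13195) encodes the precursor of a peptide that keeps vascular stem cells from differentiating. It had 4150 to 24368 (median 12389) on combined arrays, against 617 to 2250 (median 967) on no-hormone arrays, and rose by 3.46 ± 0.34 (adjusted p = 1.12e-09). HAT2 (AT5G47370), an auxin-induced homeodomain-leucine zipper factor, had 371 to 643 (median 508) on combined arrays, against 46.7 to 274 (median 116) on no-hormone arrays, and rose by 2.18 ± 0.44 (adjusted p = 5.04e-04). Neither gene overlapped between the arms. GH3.1 (AT2G14960), a second GH3 enzyme, rose by 1.98 ± 0.53 (adjusted p = 0.0114) with overlapping arms. That call was lost without the no-hormone replicate 1 on ammonium (1.61, adjusted p = 0.0601), and the rise was 0.69 with a pseudocount of 64.

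LBD29 (AT3G58190), which acts in the founder cells of lateral roots, had 197 to 984 (median 293) on combined arrays, against 16.5 to 198 (median 26.2) on no-hormone arrays. It rose by 2.81 ± 0.56 (adjusted p = 4.06e-04), and by 1.68 with a pseudocount of 64. A single no-hormone array, replicate 2 on ammonium, reached just past the lowest combined array. Its relative LBD16, also a regulator of lateral root initiation, stood at -0.89 (interval -1.76 to -0.02, adjusted p = 0.211). PUCHI, an AP2-type factor of young lateral root primordia, stood at 0.46 (-0.11 to 1.04), and the GH3 enzyme WES1 at 0.57 (0.05 to 1.08, adjusted p = 0.175). Of the other Aux/IAA genes, IAA29 stood at 0.93, IAA20 at 0.45, IAA33 at 0.01, IAA34 at -0.26 and IAA31 at -0.94, and none of these 5 passed.

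Of the cytokinin list 4 members were named. RR16 (AT2G40670, also called ARR16), a type-A response regulator, was among the 12 largest named rises. It had 7411 to 14502 (median 11806) on combined arrays, against 117 to 290 (median 187) on no-hormone arrays, and rose by 5.90 ± 0.31 (adjusted p = 4.35e-17) without overlap. ARR15, the other type-A regulator on the list, had 53.2 to 614 (median 262) on combined arrays, against 42.9 to 354 (median 236) on no-hormone arrays. Its difference was 0.59 ± 0.60 (adjusted p = 0.619), and the arms overlapped almost wholly. The cytokinin glucosyltransferases UGT76C1 (0.31) and UGT76C2 (0.26) did not pass either, and the median of the 4 genes was 0.45.

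The 12 largest named falls were all of genes known here by locus only. AT1G70985 had 3.6 to 58.7 (median 10.2) on combined arrays, against 314 to 1758 (median 745) on no-hormone arrays, and fell by 5.54 on the log2 scale (SE 0.63, adjusted p = 2.61e-08). With a pseudocount of 64 the difference was -3.22. AT1G07680 had 9.57 to 261 (median 115) on combined arrays, against 2032 to 3514 (median 2678) on no-hormone arrays, a difference of -5.14 ± 0.62 (adjusted p = 9.08e-08). Its neighbour in the RefSeq gene order, AT1G07690, had 10.6 to 78.3 (median 33.4) on combined arrays, against 516 to 1046 (median 716) on no-hormone arrays, a difference of -4.37 ± 0.47. Both neighbours were high on every array without hormone and low on every combined array.

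AT4G07820 had 431 to 1238 (median 845) on combined arrays, against 2431 to 21122 (median 16668) on no-hormone arrays, and the difference was -3.80 ± 0.37 (adjusted p = 9.73e-10). AT1G06830 had 152 to 778 (median 255) on combined arrays, against 2030 to 10382 (median 5767) on no-hormone arrays, and fell by 4.04 on the log2 scale (SE 0.35, adjusted p = 4.53e-11). AT5G66815 had 21.4 to 217 (median 114) on combined arrays, against 1023 to 8605 (median 1601) on no-hormone arrays, with a difference of -4.48 ± 0.57. AT4G12360 (-4.76), AT5G37450 (-4.30), AT1G15640 (-4.23), AT3G22540 (-3.99), AT4G30170 (-3.87) and AT4G21870 (-3.72) completed the 12, none with overlapping arms. Their choice as the largest falls largely fixes this, and over all probe sets 1.51% were lower without overlap. The fall of AT5G37450 was -2.39 with a pseudocount of 64.

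Expansins loosen walls during growth, and of 19 named members of the family 3 rose, 2 fell and 14 did not pass (median -0.33). The shares over all probe sets were 4.61% higher and 5.38% lower. EXLA1 (AT3G45970) had 756 to 4966 (median 1672) on combined arrays, against 77.0 to 263 (median 228) on no-hormone arrays, and rose by 2.47 to 3.87 on the log2 scale (95% interval, SE 0.34, adjusted p = 9.51e-09). EXLA2 rose by 2.46 ± 0.41 (adjusted p = 3.36e-05), or 0.97 with a pseudocount of 64, and neither EXLA gene overlapped. EXLB1 (0.81 ± 0.26, adjusted p = 0.0367) kept its call in only 4 of 16 fits that left out 1 array, and lost it after quantile normalization (0.69, adjusted p = 0.0626). With the actin ratio as a covariate EXLB1 did not pass either. EXPA15 had 279 to 597 (median 423) on combined arrays, against 855 to 1444 (median 1094) on no-hormone arrays, and its difference was -1.33 ± 0.25 (adjusted p = 2.23e-04).

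Root hair cells were represented by EXPA7 and EXPA18, expansins made almost only there. EXPA18 fell by 1.06 on the log2 scale (SE 0.27, adjusted p = 0.00649), and EXPA7 stood at -0.42 (interval -0.88 to 0.04). Their summed intensity was 508 to 1138 (median 886) on combined arrays, against 846 to 2097 (median 1427) on no-hormone arrays. In whole roots, fewer root hair cells and less of these RNAs per cell cannot be told apart. The 5 green tissue genes, which would mark shoot carry-over, summed to 450 to 1948 (median 807) on combined arrays, against 840 to 1285 (median 1041) on no-hormone arrays. Only 1 of the 5 was above the array median on all 16 arrays, and their part in other results was not tested. PRK, a Calvin cycle kinase, passed in this list (-2.10, adjusted p = 0.038), a call that leaving out 1 array ended for 11 of the 16 arrays, as did fits with the array median as a covariate (-1.40, adjusted p = 0.0503) and with the actin ratio as a covariate. PRK was -1.0 and passed with a pseudocount of 64.

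Xyloglucan endotransglucosylases, which cut and rejoin wall xyloglucan, had 9 named members, of which 2 rose and 1 fell (4.61% and 5.38% over all probe sets). XTH16 had 73.7 to 186 (median 160) on combined arrays, against 328 to 1040 (median 552) on no-hormone arrays, and its difference was -2.09 ± 0.41 (adjusted p = 3.98e-04) without overlap. XTH19 rose by 1.69 ± 0.45 (adjusted p = 0.0102), a call lost without the 6 arrays of extreme median (1.44, adjusted p = 0.0593). EXGT-A3 (0.85, adjusted p = 0.0416) lost its call in 13 of the 16 fits without 1 array. EXGT-A3 also lost its call with the array median, and with the actin ratio, as a covariate. The list median was -0.05, above that of all probe sets.

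The named sugar transporters were members of the SWEET family, and they went both ways. Matching by name found 44 sugar transporter genes, of which 16 were named on the array, so these counts do not describe sugar transporters at large. Of 16 named members 4 rose and 2 fell (4.61% and 5.38% over all probe sets), and the median was -0.64. SWEET4 (AT3G28007), a plasma membrane glucose carrier, had 928 to 6359 (median 4554) on combined arrays, against 84.4 to 281 (median 179) on no-hormone arrays, and rose by 4.49 ± 0.41 (adjusted p = 1.24e-10). SAG29 (AT5G13170, SWEET15), named for its rise in senescing leaves, had 570 to 1012 (median 741) on combined arrays, against 23.5 to 442 (median 311) on no-hormone arrays, and rose by 1.85 ± 0.30 (adjusted p = 2.28e-05). SWEET13 rose by 1.32 ± 0.37 (adjusted p = 0.0149), a call lost without the no-hormone replicate 1 on ammonium (1.15, adjusted p = 0.0582). SWEET16 (AT3G16690), a vacuolar sugar carrier, had 1326 to 5837 (median 2942) on combined arrays, against 4693 to 15355 (median 9921) on no-hormone arrays, and its difference was -1.58 ± 0.27 (adjusted p = 5.54e-05). SWEET2 (0.79) and SWEET11 (-1.04) passed but lost the call with the actin ratio as a covariate, and SWEET11 was -0.65 with the array median as a covariate. Without 1 array the call of SWEET2 was lost in 4 of 16 fits and that of SWEET11 in 9 of 16. SWEET2 was also lost with only these 2 arms fitted, and without the 6 arrays of extreme median.

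Of 12 named glutathione S-transferases, which detoxify by conjugation, 1 rose, 4 fell and 7 did not pass (median -0.31). Over all probe sets 4.61% rose and 5.38% fell. GSTU28 (AT1G53680) had 97.7 to 484 (median 285) on combined arrays, against 821 to 2312 (median 1460) on no-hormone arrays, and its difference was -2.56 ± 0.31 (adjusted p = 1.18e-07). GSTU27 and GSTU21 differed by -2.23 ± 0.26 and -2.0 ± 0.37 without overlap, and GSTU18 rose by 1.28 ± 0.25 (adjusted p = 3.64e-04). GSTU23 (-1.42, adjusted p = 0.0253) lost its call after quantile normalization (-1.28, adjusted p = 0.0655) and in 6 of 16 fits without 1 array, and stood at -0.90 without the combined replicate 2 on ammonium (adjusted p = 0.147). With a pseudocount of 64 it was -0.91 and passed, and with the actin ratio as a covariate it did not pass. The UDP-glycosyltransferases, which attach sugars to hormones and other small molecules, had 43 named members, of which 2 rose and 1 fell, no larger a share than the 9.99% called over all probe sets. UGT76D1 (0.71) and UGT78D1 (1.79) rose, both calls being lost when only these 2 arms were fitted (adjusted p = 0.0607 and 0.0639), and that of UGT78D1 also without any 1 of 11 arrays. With pseudocounts of 16 and 64 UGT78D1 stood at 1.04 and 0.49 and did not pass (adjusted p = 0.067 and 0.128). The member that fell was UGT71C5 (AT1G07240), which glucosylates ABA. It had 36.3 to 250 (median 118) on combined arrays, against 143 to 435 (median 271) on no-hormone arrays, a difference of -1.34 ± 0.27 (adjusted p = 4.49e-04).

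In the smaller lists few genes passed, beside 9.99% called over all probe sets. The peroxidase Prx37 fell by 1.40 on the log2 scale (adjusted p = 2.77e-04) among 6 named class III peroxidases. Aurora kinase gene AUR2, of dividing cells, rose by 0.99 ± 0.26 (adjusted p = 0.0104) among 3 cell cycle genes, a call lost when only these 2 arms were fitted (adjusted p = 0.0569). The ubiquitin-like autophagy gene ATG8H rose by 1.01 ± 0.28 (adjusted p = 0.0157) among 9 autophagy genes, and lost its call with the actin ratio as a covariate (0.88, adjusted p = 0.0638). Of 22 cytochrome P450 genes 2 fell, a share near the background of 9.99% called (5.38% lower), namely CYP78A9 (-1.5, or -0.99 with a pseudocount of 64) and CYP71B23 (adjusted p = 0.017), both lost with the actin ratio as a covariate, as was WRKY53 (-1.38), the gene that passed among 7 WRKY factors. Named members of the ethylene (3 genes), iron (2), histone (5) and defence protein (5) lists did not pass. Matching by name found 14 defence protein genes and 31 class III peroxidases, of which 5 and 6 were named on the array. AT4G07820 and AT4G30170, among the largest falls, matched no list, so these counts do not describe whole families.

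What each hormone added to the other 2 was measured by setting the same 8 combined arrays against the 8 arrays that lacked that hormone alone. ABA added to IAA and kinetin changed 1536 probe sets (6.75%), 807 up (3.55%) and 729 down (3.2%). Kinetin added to IAA and ABA changed 114 (0.501%), 91 up (0.4%) and 23 down (0.101%). IAA added to kinetin and ABA changed 93 (0.409%), 36 up (0.158%) and 57 down (0.251%), or 42 up and 30 down after quantile normalization. Against no hormone, IAA alone changed 1.03% of probe sets (0.703% up, 0.325% down), kinetin alone 0.321% (0.268% up, 0.0528% down) and ABA alone 6.41% (3.51% up, 2.9% down). The 3 additions share the combined arrays, and the single-hormone values given beside them share the no-hormone arrays, so their values stand side by side and were not correlated.

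Of the 11 dehydration list members 7 rose when ABA was added and 4 did not pass (median 2.18 beside -0.21 over all probe sets, 3.55% of which rose). With IAA or kinetin added the largest values were 1.04 (COR15A, interval 0.05 to 2.04, adjusted p = 0.574) and 0.69 (LEA18), which did not pass. LEA4-5 rose by 8.37 ± 0.46 with ABA added (adjusted p = 2.91e-16), against 0.03 with IAA added and -0.33 with kinetin added. HIS1-3, which did not pass in the combined treatment, rose by 1.58 with ABA added (adjusted p = 0.0347). Away from this list AT1G16850 rose by 8.15 ± 0.48, AT3G02480 by 8.08 ± 0.59, AT4G31830 by 7.77 ± 0.35 and AT2G21820 by 6.85 ± 0.46. The largest named falls with ABA added were those of AT2G28690 (-4.14 ± 0.40), AT5G37450 (-3.91 ± 0.55), AT1G07680 (-3.61 ± 0.62), AT2G18970 (-3.46 ± 0.48) and AT3G22540 (-3.41 ± 0.31). Both AT5G37450 and AT2G18970 stood at -2.06 with a pseudocount of 64.

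Of the 15 auxin list members 6 rose when IAA was added and 9 did not pass (median 0.71 beside -0.15 over all probe sets, 0.158% of which rose). GH3.3 rose by 4.73 ± 0.48 (adjusted p = 7.09e-08), against 7.11 ± 0.48 for IAA alone against no hormone. LBD29 rose by 2.74 ± 0.56 with IAA added (adjusted p = 0.00963), a call lost with array weights (adjusted p = 0.0623) and a rise of 1.75 with a pseudocount of 64, against 5.12 ± 0.56 for IAA alone. Its median intensity was 293 in the combined arm, 647 with IAA and kinetin, 994 with IAA and ABA, 1494 with IAA alone and 26.2 without hormone. The difference between the combined change and the sum of the single changes was -3.08 ± 1.11 for LBD29 and did not pass (adjusted p = 0.902). IAA29 rose by 2.61 with IAA added (adjusted p = 0.0141) though its combined change did not pass, and PUCHI, which rose by 1.80 with IAA alone (adjusted p = 1.42e-04), stood at 0.38 with IAA added.

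Beyond the list, AT4G21740 (3.25 ± 0.55), AT3G09280 (2.80 ± 0.50) and AT4G37295 (2.69 ± 0.41) rose furthest with IAA added, and when only the arms involved were fitted the first 2 calls were lost (adjusted p = 0.0645 and 0.138). The rise of AT4G21740 was 1.82 with a pseudocount of 64. AT4G37295 was 1.64 ± 0.41 higher in the combined arm than without hormone and 4.22 ± 0.41 higher with IAA alone. In the other direction the tetraspanin TET12 changed by -3.32 ± 0.56 with IAA added (adjusted p = 9.15e-04) and by -2.81 with ABA added. With a pseudocount of 64 the change of TET12 with IAA added was -1.83. Its median intensity was 33.5 in the combined arm, 199 with IAA and kinetin, 55.6 with IAA and ABA, 299 with kinetin and ABA, and 127 without hormone. The combined difference of TET12 was -1.51 (interval -2.64 to -0.38, adjusted p = 0.0841). AT1G23205 (-2.58), AT1G31430 (-2.5), AT5G55050 (-2.32) and AT5G11940 (-2.23) also passed with IAA added. Array weights ended the call for AT1G23205 (adjusted p = 0.0962) and AT1G31430 (adjusted p = 0.143), as did leaving out 1 array for 11 and 12 of the 16 arrays. With a pseudocount of 64 AT1G23205 stood at -1.16 and passed, while AT1G31430 (-0.91, adjusted p = 0.0728) and AT5G11940 (-0.92, adjusted p = 0.0852) did not pass. When only the arms involved were fitted AT5G55050 (adjusted p = 0.246) and AT5G11940 (adjusted p = 0.251) were lost, and AT5G11940 was also lost without replicate 2 of kinetin and ABA without nitrogen (-1.73, adjusted p = 0.0805).

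Kinetin added to IAA and ABA raised both type-A regulators. RR16 rose by 4.00 ± 0.31 (adjusted p = 4.42e-11) and ARR15 by 3.24 ± 0.60 (adjusted p = 0.00181). For RR16 the single changes were 4.37 with kinetin, 3.51 with ABA and -0.81 with IAA, and ABA added to IAA and kinetin gave a further 2.08 ± 0.31 (adjusted p = 7.16e-06). ARR15 changed by -1.98 with ABA alone (adjusted p = 0.0364) and by 1.82 with kinetin alone (adjusted p = 0.419). Both thus passed on adding kinetin, and RR16 but not ARR15 in the combined comparison; the difference between the genes was not tested.

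The largest change on adding kinetin was that of AT4G35725, which rose by 5.66 ± 0.55 (adjusted p = 1.01e-08). It had 495 to 8681 (median 4360) on combined arrays, against 11.6 to 231 (median 85.7) on no-hormone arrays, with no overlap and a combined difference of 5.85 ± 0.55. Its medians were 2225 with kinetin and ABA, 908 with IAA and kinetin, 164 with kinetin alone and 115 with ABA alone. The excess of the combined change over the summed single changes was 3.54 ± 1.09, which did not pass (adjusted p = 0.626). AT2G16005 rose by 4.1 ± 0.31 and AT3G14395 by 3.81 ± 0.57 with kinetin added. OCT1, an organic cation and carnitine transporter, fell by 3.63 on the log2 scale with kinetin added (SE 0.65, adjusted p = 0.0014). It had risen by 3.84 ± 0.65 with ABA alone, and its combined difference was 1.24 (interval -0.09 to 2.57, adjusted p = 0.266).

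AT4G11190 did not pass in the combined comparison but changed with single hormones in opposite directions. Its intensity was 460 to 3139 (median 2151) on combined arrays, against 557 to 2067 (median 1334) on no-hormone arrays, with a difference of 0.48 (SE 0.55, adjusted p = 0.672). Kinetin alone gave 3.72 ± 0.55 (adjusted p = 9.94e-05) and IAA alone -3.12 ± 0.55 (adjusted p = 7.93e-04). In the presence of the others, kinetin added 4.14 ± 0.55 (adjusted p = 9.85e-06), ABA added -2.37 (adjusted p = 0.00447) and IAA added -1.33, which did not pass. For AT4G30170 the single changes of -1.23 (IAA, adjusted p = 0.0542), -0.59 (kinetin) and that of ABA (adjusted p = 0.0585) did not pass, and the combined difference was -3.87 ± 0.33. Each addition to the other 2 passed for it, at -1.80 for IAA, -1.33 for kinetin and -1.05 for ABA. The departure of the combined change of AT4G30170 from the sum of its single changes did not pass.

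**Figure D3:**
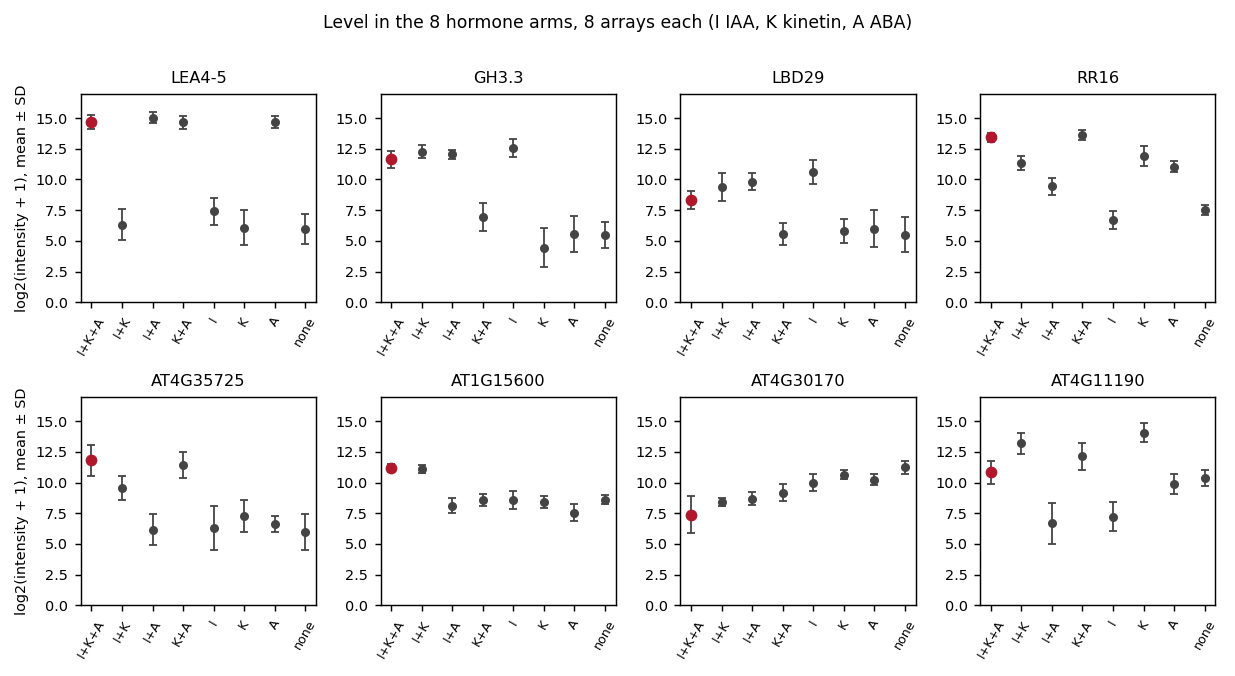
Mean ± SD of log2(intensity + 1) over 8 arrays in each hormone arm for 8 genes, with the combined arm in red at the left and the no-hormone arm at the right. LEA4-5 is high in the 4 arms with ABA and GH3.3 in the 4 with IAA, while AT1G15600 is high in the combined arm and with IAA and kinetin (medians 2388 and 2314) and lower in the other 6.

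Across all probe sets, the combined change departed from the sum of the 3 single changes for 1 gene, or 0.0044% of those tested. In limma 1040 probe sets had an unadjusted p under 0.05, fewer than that threshold passes by chance alone. AT1G15600 had 1504 to 3150 (median 2388) on combined arrays, against 285 to 523 (median 388) on no-hormone arrays, and rose by 2.57 ± 0.26 (adjusted p = 2.04e-09). No single hormone raised it, with -0.02 for IAA, -0.20 for kinetin and -1.06 for ABA. The departure was 3.85 ± 0.52 (adjusted p = 2.5e-04), and it passed under every alternative run. Its median was 2314 with IAA and kinetin and 253 to 406 in the other pairs. Kinetin added to IAA and ABA gave 3.05 ± 0.26 and IAA added to kinetin and ABA gave 2.6 ± 0.26, whereas ABA added 0.07. In the 4 regimes the combined rise was 2.53, 2.56, 2.99 and 2.19, and it passed in each.

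Within single nitrogen regimes, where 2 arrays stood against 2, 636 probe sets passed without nitrogen (2.8%; 1.23% higher, 1.57% lower), 293 on ammonium (1.29%), 504 on nitrate (2.22%) and 398 on mixed nitrogen (1.75%). Higher and lower calls were 0.835% and 0.453% on ammonium, 1.57% and 0.646% on nitrate, and 1.11% and 0.637% on mixed nitrogen. Without nitrogen 280 were higher and 356 lower, or 322 higher and 199 lower after quantile normalization, and the median of all probe sets there was -0.59. The 3 other regimes had more higher than lower calls, with medians between -0.24 and 0.10. Of the 12 largest named rises all 12 passed in all 4 regimes, and of the 12 largest named falls 8 did. Their choice by the mean over these same regimes largely fixes both counts. COR15A varied least among the rises, from 5.87 on nitrate to 6.54 without nitrogen, and AT1G16850 most, from 5.64 on nitrate to 9.20 without nitrogen. When each regime's own 4 arrays were fitted alone, 42, 0, 0 and 0 probe sets passed in limma, beside 2518, 2489, 3327 and 2128 at an unadjusted p under 0.05.

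**Figure D4:**
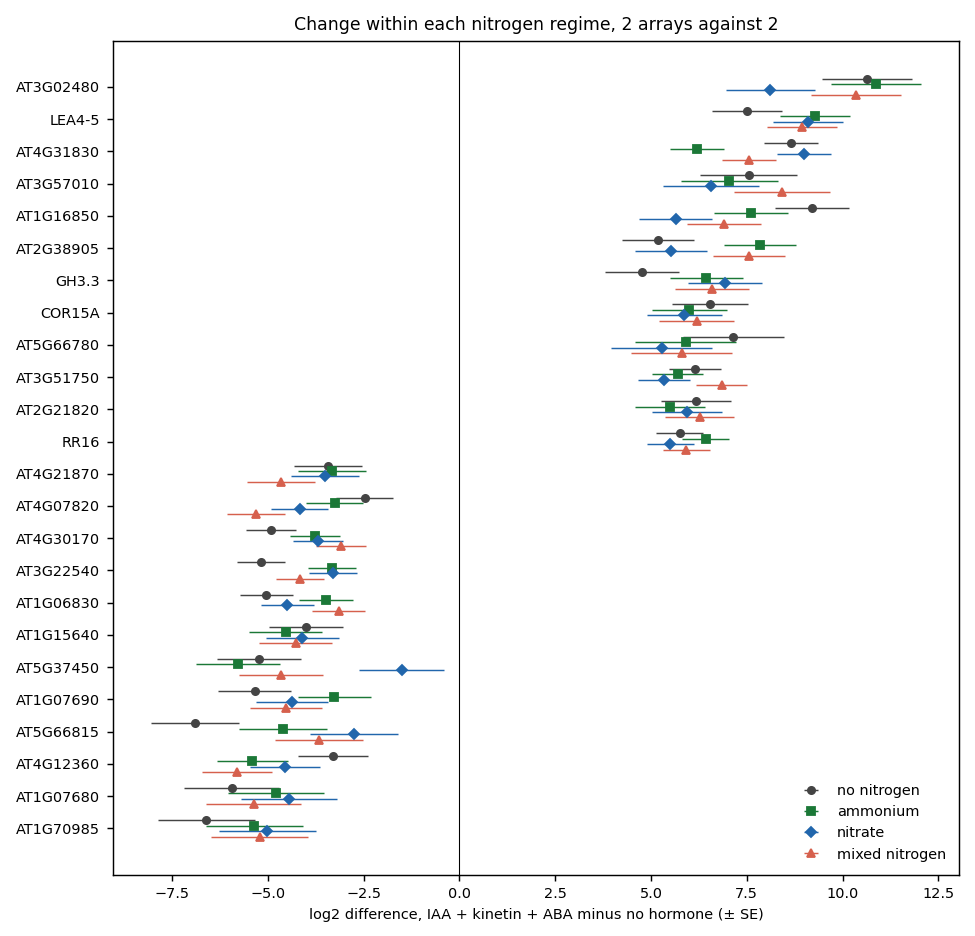
Log2 difference, combined minus no hormone, ± SE within each nitrogen regime (2 arrays against 2) for the 12 named genes that rose and the 12 that fell furthest. Every point of a gene lies on the same side of 0, and the widest spreads are those of AT5G37450 (-5.77 to -1.51) and AT5G66815 (-6.90 to -2.76).

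Of the 43 list genes that passed, 40 had the same sign in all 4 regimes, 25 higher and 15 lower, which the call on the mean of these regimes largely fixes, as it does for the 977 of 1048 higher and 1111 of 1224 lower probe sets. EXLA1 rose by 4.75 ± 0.69 without nitrogen and by 3.7 ± 0.69 on mixed nitrogen, and stood at 2.53 on ammonium and 1.70 on nitrate, which did not pass. SWEET4 rose in each regime, from 3.26 on nitrate to 5.25 on ammonium. CLE44 stood at 2.31 without nitrogen, which did not pass, and rose by 4.48 ± 0.68 on nitrate. Whether these differences between regimes exceed the spread was tested by the F test that follows, and none of these 3 genes passed it.

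The change differed between regimes for 1 gene, ROXY2 (AT5G14070), a CC-type glutaredoxin (F test of the regime differences in limma, adjusted p = 0.00573, or 0.0044% of probe sets). In this F test 1230 probe sets had an unadjusted p under 0.05, close to the number that threshold passes by chance alone. Without nitrogen the intensities of ROXY2 were 375 and 552 on combined arrays, against 50.4 and 77.3 on no-hormone arrays. On nitrate they were 32.4 and 53.9 on combined arrays, against 328 and 422 on no-hormone arrays. The difference was thus 2.85 ± 0.58 without nitrogen (adjusted p = 0.00264) and -3.12 ± 0.58 on nitrate (adjusted p = 7.67e-04), with opposite signs.

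On ammonium ROXY2 had 482 and 275 on combined arrays, against 257 and 404 on no-hormone arrays, and on mixed nitrogen 364 and 388 on combined arrays, against 701 and 484 on no-hormone arrays. Neither regime passed (0.17 and -0.63), and the mean over the 4 regimes was -0.18 ± 0.29. The call of the F test was lost without the combined replicate 2 without nitrogen (adjusted p = 0.0565), without the no-hormone replicate 2 on nitrate (0.0723) and without the combined replicate 1 on nitrate (0.0523). It was also lost when only these 16 arrays were fitted (adjusted p = 0.35).

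NRT2.5 (AT1G12940), a high-affinity nitrate transporter of nitrogen-starved roots and the named member of the nitrate list, fell by 1.65 on the log2 scale (SE 0.31, adjusted p = 1.66e-04). Without nitrogen it had 79.0 and 143 on combined arrays, against 1719 and 1458 on no-hormone arrays, a difference of -3.88 ± 0.61 (adjusted p = 9.56e-05). On ammonium it had 329 and 320 on combined arrays, against 569 and 911 on no-hormone arrays. On nitrate it had 257 and 163 on combined arrays, against 231 and 331 on no-hormone arrays, and on mixed nitrogen 170 and 338 on combined arrays, against 686 and 408 on no-hormone arrays. The differences in these 3 regimes were -1.15, -0.43 and -1.14 and did not pass, and the F test of regime differences did not pass either (adjusted p = 0.838). The no-nitrogen group without hormone was the highest of the 8, and its combined counterpart the lowest.

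**Figure D5:**
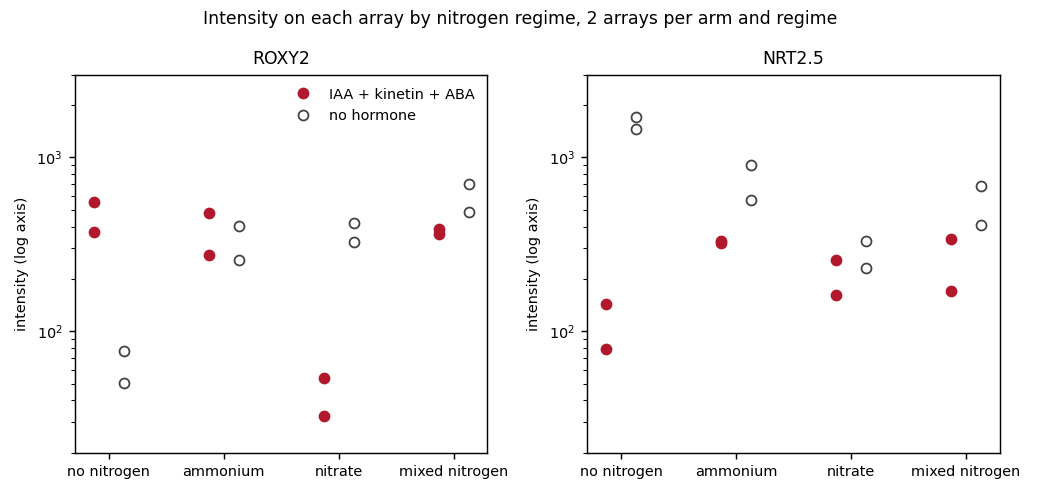
Intensity of ROXY2 and NRT2.5 on each array (log axis) in the 4 nitrogen regimes, with the 2 combined arrays filled and left and the 2 no-hormone arrays open and right. For ROXY2 the combined arrays lie above without nitrogen (375 and 552 against 50.4 and 77.3) and below on nitrate, and for NRT2.5 the gap is widest without nitrogen.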

How the data were processed

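Total RNA of roots was extracted with Trizol, labelled with biotin and hybridised to Affymetrix arrays of 22810 probe sets, per the labels' protocols. The authors deposited linear intensity values, 1 per probe set and array. Which software summarised the probes, and how background was treated, is not given in the sources used here. Every array has a mean of 500 over probe sets once the lowest and highest 2% are left out, so the deposited intensities were scaled but not quantile normalized.

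Here 64 control probe sets were left out, and log2(intensity + 1) of the other 22746 was fitted with limma 3.58.1 in R 4.3.3. The fit held all 32 groups, which share 1 estimate of the spread, with 32 residual and 3.83 prior degrees of freedom. Adjusted p-values are Benjamini-Hochberg within a comparison. No array was dropped, and the number of arrays limits the precision. Duplicate arrays of the 8 groups correlated at 0.814 to 0.894 across probe sets, which are not independent replicates.

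Probe sets were named through the platform table, which gives 1 gene for 13513, several for 503 and none for 8794. RefSeq's TAIR10.1 gene table held 13436 of those with 1 gene. Named genes are the 12 largest rises and falls, the 5 largest each way for an added hormone or a departure, the 3 largest each way in a regime, and list members. A gene with several probe sets is represented by the brightest. Members and lists were chosen with earlier results of these data known. Lists with no named member on the array are not described.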

Additional observations from a re-analysis of the deposited data

Results flagged for a closer look

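AT4G30170 had a combined array far from the other 7. Its log2 intensity was 3.81 on the combined replicate 2 without nitrogen, and the nearest combined array stood at 7.37, a gap of 0.757 of the range of the arm. Of 48 pairs of gene and arm checked among the named genes, this was the 1 that passed Dixon's limit of 0.526, where chance alone flags about 1 in 20. Without this array the combined difference of AT4G30170 was -3.41 (limma, adjusted p = 4.47e-12), beside -3.87 with it.

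ROXY2 changed in opposite directions between nitrogen regimes (F test in limma, adjusted p = 0.00573), higher on 2 of 2 combined arrays without nitrogen and lower on 2 of 2 on nitrate.

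AT1G15600 rose by more with the combined treatment than the single changes add up to, with a departure of 3.85 on the log2 scale (limma, adjusted p = 2.5e-04). Its combined arrays lay above every no-hormone array, in 8 of 8 cases, as did those of 1.97% of all probe sets.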

How the results depend on the processing

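Under each alternative the combined comparison kept a count within 1.5 times of 2272, from 1833 with only its own groups to 3213 with the array median as covariate, and 1864 to 2319 when 1 array was left out. The probe sets called were not all the same. Of the 2272, 1598 were kept with only its own groups and 1742 with the actin ratio as covariate. After quantile normalization 1942 were kept, and 2097 with the array median as covariate. Of 119 gene calls checked, 72 held under every alternative run and none changed sign.

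Other counts moved by more. Without nitrogen (636) it was 303 with array weights, 333 with the actin ratio as covariate, 330 without the 6 arrays of extreme median (chosen after seeing the data), 42 with only the groups compared, and 229 (without no-hormone replicate 2) to 899 (without combined replicate 2) on leaving out 1 array. On ammonium (293) it was 495 with the array median as covariate, 713 with array weights, 0 with only those groups and 127 to 176 leaving out 1 array. On nitrate (504) it was 985, 1159, 0 and 190 to 371 under the same settings. On mixed nitrogen (398) it was 670 with the array median, 0 with only those groups (unadjusted counts are in the report) and 191 to 323. With only the groups compared, ABA added gave 773 (main 1536, leaving out 1 array 1193 to 1609), kinetin added 40 (114, 86 to 111) and IAA added 19 (93, 56 to 107). The departure (1) became 9 with a pseudocount of 64, 3 after quantile normalization, 5 without the dimmest 40% of probe sets, 6 with array weights, 2 with only the groups involved, 3 without the extreme arrays and 1 to 3 leaving out 1 array. IAA alone (234, or 160 up and 74 down; 158 and 118 after quantile normalization) gave 371 with the array median, 94 with only its groups and 158 to 314. Kinetin alone (73) gave 130 with the array median, 135 with array weights and 55 to 74, and ABA alone (1458) 1188 to 1354. Nitrogen dependence (1) gave 2 with a pseudocount of 16, 2 with the array median, 3 with array weights, 0 with only its groups (1230 at an unadjusted p under 0.05 in the fit of all groups), 4 without the extreme arrays and 0 to 15 leaving out 1 array. Fewer samples leave fewer degrees of freedom when only the groups compared are fitted; the cause of the other shifts was not tested.

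The labels number replicates only. Same-numbered arrays of different groups correlated in their deviations from -0.13 to 0.18 (median 0.0036, 28 pairs of groups), with 6 pairs over 0.1. These pairs cover only the groups of the 2 arms, so whether the numbers mark a shared batch cannot be told from them. With a replicate block the combined comparison gave 2560, the departure 5 and nitrogen dependence 2. The size of a change to or from a low intensity depends on the pseudocount, as the values with a pseudocount of 64 show.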
